A study of Homo sapiens with 4 samples.

Results

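The 14-3-3 family of human genes has 7 members, YWHAB, YWHAE, YWHAG, YWHAH, YWHAQ, YWHAZ and SFN, and all 7 were measured, among 18377 genes in all. They were chosen by family name, each matched to probe sets that carry its symbol alone in the platform's annotation, with their levels on the arrays and their siTAZ minus siNTC differences in view. Those values are therefore given as descriptions without a test. RNA was measured in 4 groups with 1 array each: A549 cells transfected with siTAZ, A549 cells transfected with siNTC, H441 cells transfected with siTAZ and H441 cells transfected with siNTC. A549 and H441 are established human lung adenocarcinoma lines, all cells received an siRNA with a lipid reagent, and RNA was taken 48 h later. siTAZ is named for TAZ, the transcriptional co-activator encoded by WWTR1, and siNTC is the control siRNA. The sources used here do not state the siRNA sequences.

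The 14-3-3 proteins are small acidic adaptors that act as dimers and bind partner proteins at phosphorylated serine or threonine. In the Hippo pathway the LATS kinases phosphorylate TAZ and its paralog YAP, the phosphorylated forms bind 14-3-3 proteins, and the bound co-activators are held in the cytoplasm away from the TEAD factors. The same adaptors bind CDC25 phosphatases, FOXO factors and BAD, which ties them to the cell cycle, growth signalling and cell death.

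Values are the authors' log2 probe set signals. Whole-array medians lay between 6.05 and 6.25, and Pearson's r between siTAZ and siNTC arrays across probe sets, which are not independent replicates, was 0.994 in A549 and 0.995 in H441. The 7 genes all reached the table median, 6.13, on each of the 4 arrays. Of 10 markers of lung adenocarcinoma epithelium, 6 reached that median on the A549 siTAZ array, 7 on the A549 siNTC array and 9 on each H441 array. NKX2-1, SFTPB and NAPSA were below it on both A549 arrays. Of 10 markers of blood, endothelial and stromal cells, 3 reached it on the A549 arrays, 5 on the H441 siTAZ array and 4 on the H441 siNTC array. With 1 array per group no value has an error, and whether 2 levels of one gene differ beyond replicate spread cannot be told. In RNA from whole cultures, fewer cells that express a gene and less of its RNA per cell cannot be told apart. Signals of different probe sets are not on one scale, so levels were compared within a gene only.

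YWHAH, which encodes 14-3-3 eta, was the family member with the largest difference after siTAZ, and it was lower in both lines. Its log2 signal was 7.65 with siTAZ, against 8.85 with siNTC, in A549. In H441 it was 8.54 with siTAZ, against 9.37 with siNTC. Each siTAZ array was below both siNTC arrays, so that the siTAZ array of H441 was also below the siNTC array of A549. The difference was -1.20 in A549, a signal 2.30-fold lower that left 43.5% of the control signal, and -0.83 in H441, 1.78-fold lower with 56.2% left. YWHAH had the 7th lowest difference of 11405 genes in A549 and the 15th lowest of 11911 in H441. WWTR1 itself had 7.64 with siTAZ, against 10.04 with siNTC, in A549 and 7.47, against 9.61, in H441, so that 19.0% and 22.7% of its control signal was left. The YWHAH difference stayed between -1.25 and -1.19 in A549 and between -0.92 and -0.79 in H441 after median centring, quantile normalization or cyclic loess of the arrays.

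**Figure D1:**
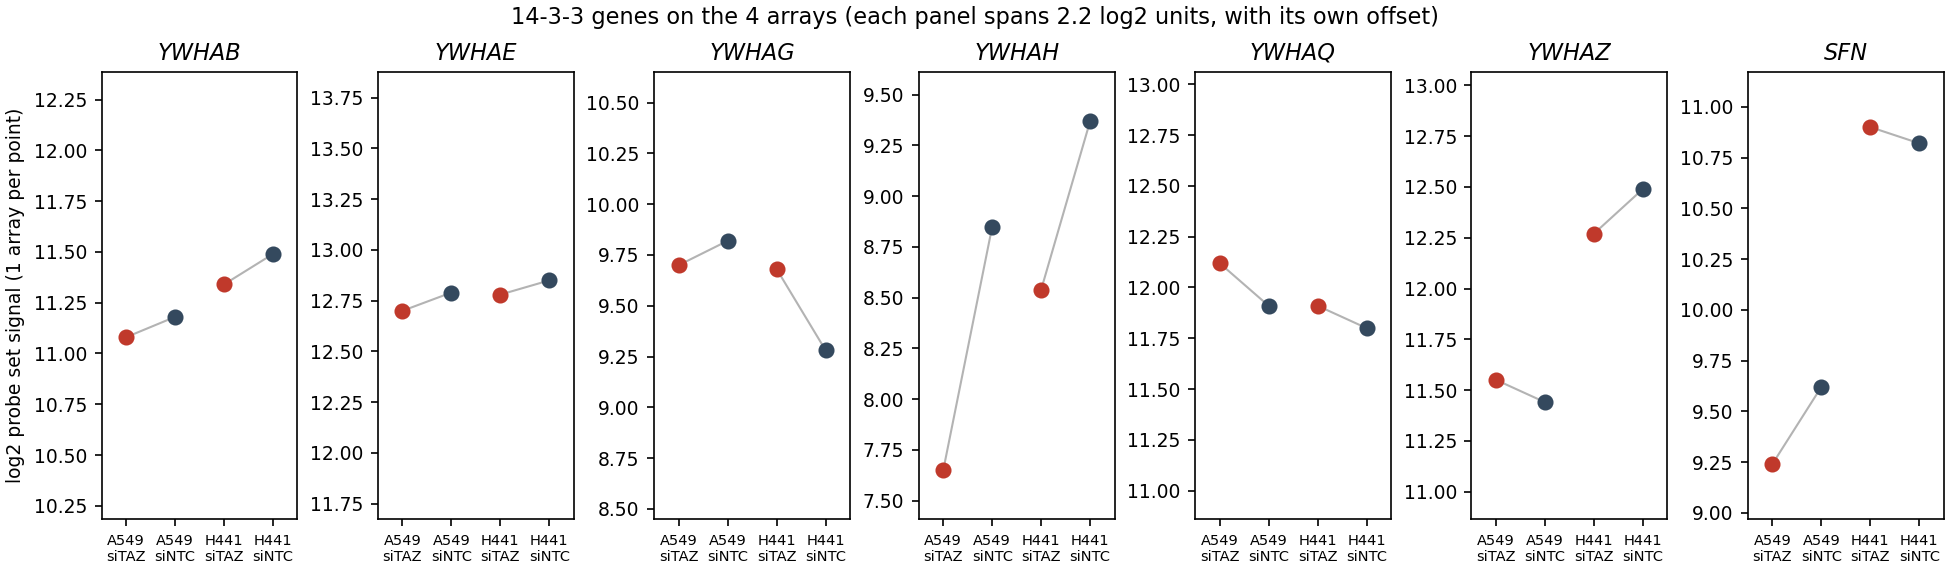
Log2 probe set signal (vertical axis) of each 14-3-3 gene on the A549 siTAZ, A549 siNTC, H441 siTAZ and H441 siNTC arrays (horizontal axis), 1 array per point, red for siTAZ and dark blue for siNTC, with a grey line joining the arrays of a line. All panels have the same span but their own offset. YWHAH was lower with siTAZ in both lines, at 7.65 and 8.54, against 8.85 and 9.37 with siNTC.

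No probe set was annotated to YWHAH together with another gene, and no pseudogene of YWHAH is listed in the RefSeq annotation. An antisense RNA gene, YWHAH-AS1, lies on the other strand close to its start. The YWHAH-AS1 probe set had log2 signals of 5.24 with siTAZ, against 5.28 with siNTC, in A549 and 5.37, against 5.43, in H441. These 4 values were below the table median, and the differences were -0.04 and -0.06.

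The promoter of YWHAH is shown because it is the one family member past 1.5-fold after siTAZ, and that of SFN because its level differed most between the lines. Each sequence is the 250 bases before the RefSeq transcription start on GRCh38.p14, 5′ to 3′ on the gene's own strand, with motif matches in capitals. The YWHAH window is chr22:31944285-31944534 and the SFN window is chr1:26862899-26863148, both on the plus strand.
YWHAH: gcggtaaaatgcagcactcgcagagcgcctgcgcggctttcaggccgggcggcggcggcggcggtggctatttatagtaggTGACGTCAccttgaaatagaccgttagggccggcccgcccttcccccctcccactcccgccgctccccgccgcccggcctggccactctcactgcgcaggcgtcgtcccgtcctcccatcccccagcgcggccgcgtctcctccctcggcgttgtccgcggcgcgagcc
SFN: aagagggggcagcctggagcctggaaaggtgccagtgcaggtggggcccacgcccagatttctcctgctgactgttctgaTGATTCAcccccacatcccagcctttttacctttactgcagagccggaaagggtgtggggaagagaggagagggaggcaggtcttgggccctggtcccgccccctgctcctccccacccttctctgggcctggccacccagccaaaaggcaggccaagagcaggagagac

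The motifs searched, on both strands, were the TEAD core GGAATG or CATTCC, an AP-1 pattern TGANTCA and the palindromic cyclic AMP response element (CRE) TGACGTCA. In the AP-1 pattern N was any base, which is looser than a site limited to C or G there. It reads as the same pattern on either strand. The CRE was added after the YWHAH sequence had been seen. None of the 3 patterns can be read inside another. The YWHAH window held the CRE, 169 to 162 bases before the start, and no TEAD core or AP-1 pattern. The SFN window held TGATTCA, a match to the AP-1 pattern with T as its open base, 170 to 164 bases before the start. It held neither of the other patterns. The windows of YWHAB, YWHAE, YWHAG and YWHAQ held none of the 3, and YWHAZ was not searched. Of 35116 promoter windows of this length, 11.9% held a TEAD core, 6.57% the AP-1 pattern and 1.65% the CRE. Because the CRE was added after the YWHAH sequence had been seen, its match there is not to be weighed against the 1.65%. A match is a run of letters and not a measured binding site. The G and C content was 72.0% in the YWHAH window and 62.8% in the SFN window, against 70.4% to 71.6% in the windows of YWHAB, YWHAE, YWHAG and YWHAQ and a median of 58.0% over all windows.

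The other 6 family members had differences after siTAZ between -0.38 and 0.20 in A549 and between -0.21 and 0.39 in H441, the largest being 1.30-fold in A549 and 1.31-fold in H441. At 1.5-fold, 1 of the 7 members was called in each line, YWHAH in both, where 2.83% of all genes were called in A549 and 1.45% in H441. Lower by 1.5-fold in both lines at once were 0.236% of the 10576 genes at or above the table median in both. The median difference of the 7 was -0.09 in A549 and -0.07 in H441, against 0.0051 and 0.0048 over all genes. Since these contrasts were part of how the family came to be described, nothing is read from these shares.

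**Figure D2:**
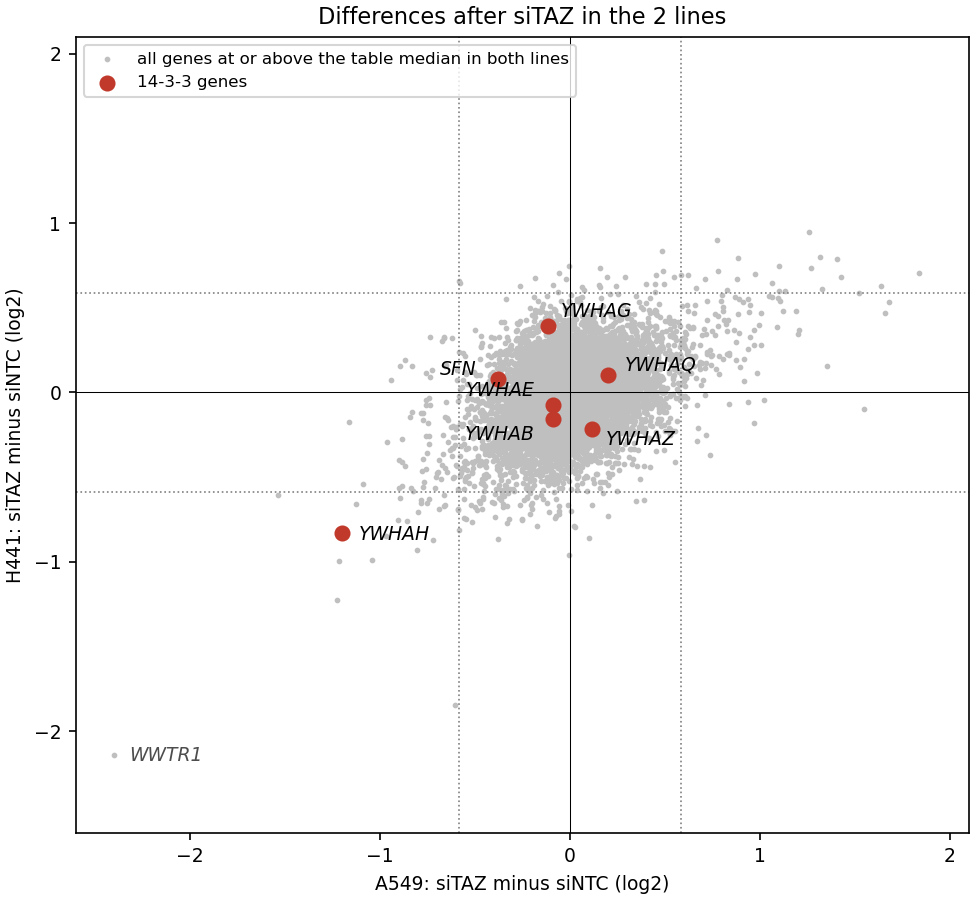
Log2 difference, siTAZ minus siNTC, in A549 (horizontal axis) and H441 (vertical axis). Grey points are genes at or above the table median in both lines, red points the 14-3-3 genes, and dotted lines mark 1.5-fold. YWHAH lies at -1.20 and -0.83, while the other 6 members lie within the dotted lines on both axes.

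SFN encodes 14-3-3 sigma, or stratifin, the epithelial member, a DNA damage response gene that holds back cell cycle entry into mitosis after DNA damage. Its log2 signal was 9.24 with siTAZ, against 9.62 with siNTC, in A549, a difference of -0.38 or 1.30-fold lower. In H441 it was 10.90 with siTAZ, against 10.82 with siNTC, a difference of 0.08. In A549, 9.45% of genes had a difference of larger size than SFN in either direction, and 3.91% had a lower difference. In H441 the difference was -0.0028 after median centring, 0.14 after quantile normalization and 0.15 after cyclic loess, so that it has no settled direction there.

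YWHAG encodes 14-3-3 gamma, which binds CDC25C. It had 9.70 with siTAZ, against 9.82 with siNTC, in A549 and 9.68 with siTAZ, against 9.28 with siNTC, in H441. The differences were -0.11 and 0.39, and the H441 siNTC array was the lowest of the 4. The H441 value, 1.31-fold higher, was the largest difference in that line after YWHAH, and 7.02% of genes had a difference of larger size. It stayed between 0.31 and 0.45 under the alternatives.

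YWHAQ encodes 14-3-3 theta, also called tau. It had 12.12 with siTAZ, against 11.91 with siNTC, in A549 and 11.91 with siTAZ, against 11.80 with siNTC, in H441. It was the one member with a higher value after siTAZ in both lines, by 0.20 and 0.10. In A549, 30.2% of all genes had a difference of larger size, and in H441 60.0%.

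YWHAZ encodes 14-3-3 zeta, a widely studied adaptor of survival signalling. It had 11.55 with siTAZ, against 11.44 with siNTC, in A549 and 12.27 with siTAZ, against 12.49 with siNTC, in H441. The differences were 0.12 and -0.21, with both H441 arrays above both A549 arrays.

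YWHAB, which encodes 14-3-3 beta, had 11.08 with siTAZ, against 11.18 with siNTC, in A549 and 11.34 with siTAZ, against 11.49 with siNTC, in H441. The differences were -0.09 in A549 and -0.16 in H441, and 62.7% of all genes in A549 and 43.8% in H441 had a difference of larger size.

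YWHAE, which encodes 14-3-3 epsilon, a member that tends to pair with other members, varied least over the 4 arrays, with a range of 0.15. It had 12.70 with siTAZ, against 12.79 with siNTC, in A549 and 12.78 with siTAZ, against 12.85 with siNTC, in H441. It is the only member with 2 probe sets, and the dimmer one had the opposite sign, with 0.08 in A549 and 0.04 in H441, against -0.09 and -0.07 for the brighter one. No direction is therefore given for YWHAE. Both probe sets were assigned to it by symbol alone, and whether either lies at a pseudogene was not checked. RefSeq lists 7 pseudogenes of YWHAE, 10 of YWHAQ, 10 of YWHAZ and 2 of YWHAB, near-copies whose transcripts could bind the same probes, so the values of these 4 genes are uncertain in that respect. One of these pseudogenes, YWHAQP8, has a probe set annotated with its symbol alone, with differences of 0.02 in A549 and -0.12 in H441.

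The level of the family in A549 against H441 differed by member. SFN was 3.16-fold lower in A549 on the siTAZ arrays (A549 minus H441 of -1.66) and 2.30-fold lower on the siNTC arrays (-1.20). YWHAZ was 1.65-fold lower in A549 on the siTAZ arrays (-0.72) and 2.07-fold lower on the siNTC arrays (-1.05). YWHAH had A549 minus H441 differences of -0.89 with siTAZ and -0.52 with siNTC. For these 3 genes both A549 values were below the H441 value of the same siRNA, and for SFN and YWHAZ both A549 arrays were below both H441 arrays. YWHAG was the member most above its H441 level in A549 on the siNTC arrays, by 0.53, against 0.03 on the siTAZ arrays. At 2-fold, 1 of the 7 members was called between the lines on the siTAZ arrays, SFN, where 23.5% of all genes were, and 2 on the siNTC arrays, SFN and YWHAZ, where 25.3% were.

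These line differences depended on the scaling. Over all genes the median of A549 minus H441 was -0.31 on the siNTC arrays. It was -0.185 after median centring, and 0.01 after quantile normalization or cyclic loess. On the siNTC arrays 897 genes were higher and 2232 lower in A549 by 2-fold. The counts were 1037 and 1815 after median centring, and 1322 and 1276 after quantile normalization. The SFN difference on the siNTC arrays came to as little as -0.77 and that of YWHAZ to -0.61 under the alternatives, under 2-fold, with the sign kept. The SFN difference on the siTAZ arrays stayed at or beyond -1.28. That of YWHAH kept its sign but came to -0.10 on the siNTC arrays after quantile normalization and to -0.52 on the siTAZ arrays after cyclic loess. That of YWHAG came to 0.96 on the siNTC arrays and 0.40 on the siTAZ arrays after cyclic loess, so its value near 0 on the siTAZ arrays depends on the scaling. YWHAQ, at 0.21 with siTAZ and 0.11 with siNTC, came to as much as 0.56 and 0.55. YWHAB, at -0.25 with siTAZ and -0.32 with siNTC, and YWHAE, at -0.08 and -0.07, changed sign between scalings and have no settled order between the lines.

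**Figure D3:**
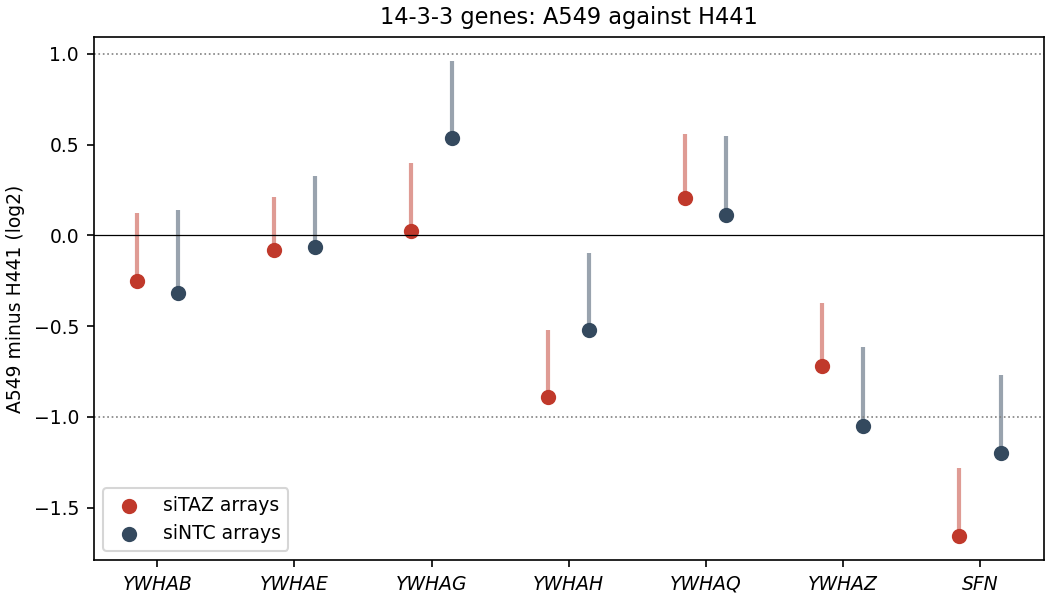
A549 minus H441 in log2 signal (vertical axis) for each 14-3-3 gene, red for the siTAZ arrays and dark blue for the siNTC arrays, 1 array per line and siRNA. Vertical bars span the values over median centring, quantile normalization, cyclic loess and averaged probe sets, and dotted lines mark 2-fold. SFN lies lowest, at -1.66 with siTAZ and -1.20 with siNTC.

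Profiles over the 4 arrays, each gene centred on its own mean, were compared by Euclidean distance among 12740 genes. Nearest to YWHAH were CHCHD3, a mitochondrial inner membrane protein (distance 0.18), DCTN5, a dynactin subunit (0.25), LIN52, a subunit of the DREAM complex (0.33), GK5, a glycerol kinase family gene (0.37), and KLHL11, a Kelch family gene (0.39). CHCHD3 had 8.51 with siTAZ, against 9.72 with siNTC, in A549 and 9.46, against 10.46, in H441. Because these 5 genes were picked on the same 4 values, the directions they share with YWHAH follow from the choice. They were lower with siTAZ in both lines, with differences from -1.21 to -0.78 in A549 and from -0.997 to -0.40 in H441. They were also lower in A549 than in H441 with either siRNA. The nearest 14-3-3 gene to YWHAH was YWHAB, at rank 1977. Nearest to SFN were ELL3, TNFRSF12A, ZFAS1, TUFT1 and EHD4, at distances of 0.11 to 0.12, picked in the same way. The A549 signals of ELL3, 4.99 with siTAZ and 5.29 with siNTC, were below the table median. The nearest family member to SFN was YWHAZ, at rank 2170. The comparison rests on 4 arrays and it says nothing beyond them.

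**Figure D4:**
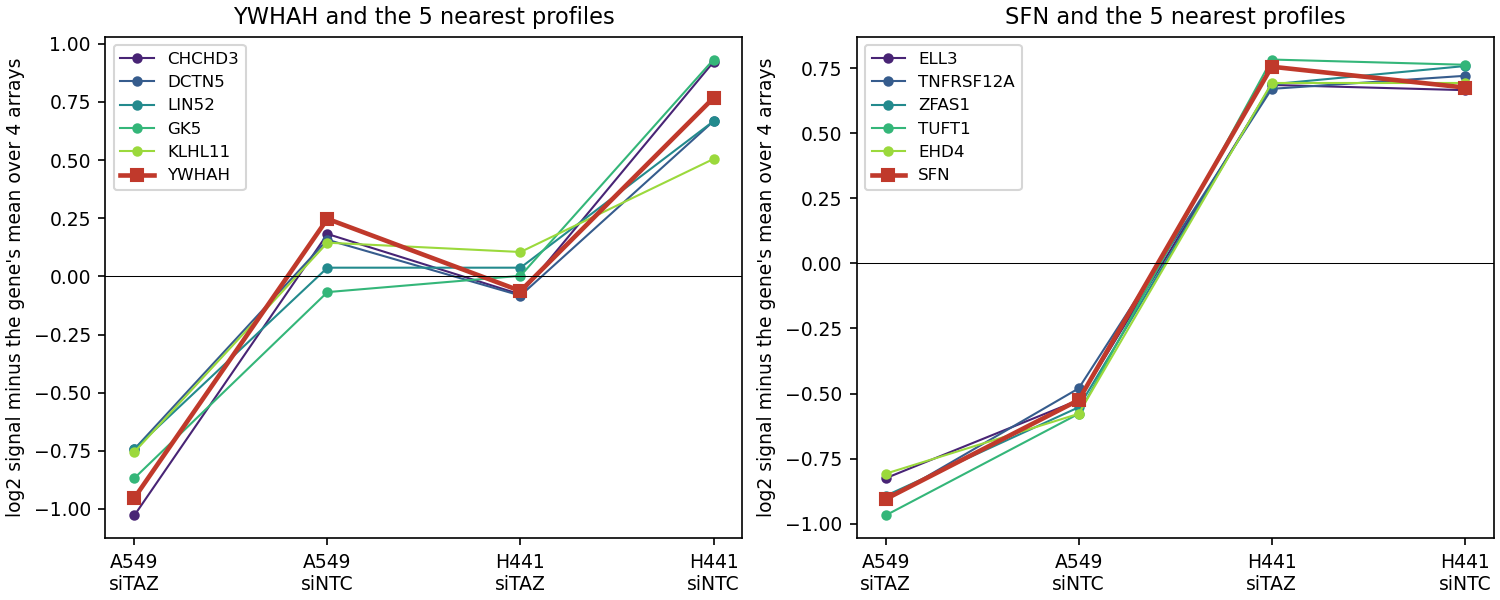
Log2 signal minus the gene's mean over the 4 arrays (vertical axis) on each array (horizontal axis) for YWHAH (left, red squares) and SFN (right, red squares), each with the 5 genes nearest in profile. YWHAH and its neighbours were lower with siTAZ in both lines, and SFN and its neighbours had their 2 H441 values above their 2 A549 values. The neighbours were picked on these 4 values, so the shared directions follow from the choice.

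Genes that act with the family were followed in lists of other genes, tested with limma over both lines (lmFit and eBayes with the cell line as a block, Benjamini-Hochberg adjusted p over 12740 genes), where 1.19% of all genes were called higher and 1.29% lower. A call rests on 2 lines, each measured once. Every SE is the moderated one of that fit, with 1 residual degree of freedom and a prior worth 22.3. It therefore mostly reflects a spread pooled over all tested genes, and is not the spread of that gene between the lines. A gene can be called although its lines differ, as TP53INP1 was, with 1.45 in A549 and 0.23 in H441.

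Of 14 core Hippo and TEAD genes, including both 14-3-3 binding co-activators, 1 fell and 0 rose, or 7.14%, beside 2.47% of all genes. With an unadjusted limma p under 0.05 there were 3 (21.4%), beside 13.2% of all genes. The one call was WWTR1, with -2.40 in A549 and -2.14 in H441 (-2.27 ± 0.12 SE, 2 lines, limma adjusted p = 1.5e-11). WWTR1 encodes the protein that siTAZ is named for, so its call is no result about the rest of the list. YAP1, the other Hippo-controlled client of 14-3-3 proteins, had 9.44 with siTAZ, against 9.23 with siNTC, in A549 and 10.55, against 10.46, in H441 (limma adjusted p = 0.65). LATS1, a kinase that creates the 14-3-3 site of TAZ, had differences of 0.45 and 0.39 and did not pass (adjusted p = 0.057). LATS2 had 0.12 and 0.15. STK3, an upstream kinase, had 0.53 and -0.25, MOB1A 0.11 and -0.38, and TEAD1 -0.24 and -0.31. The list's median was 0.05 in A549 and -0.05 in H441, beside 0.0037 and 0.01 over all tested genes.

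Genes for TAZ dephosphorylation and turnover were measured for 15 of 16, and limma called 0, with 1 (6.67%) at an unadjusted p under 0.05, beside 13.2% of all genes. That one was BTRC, the F-box protein that marks phosphorylated TAZ for destruction, which had -0.29 in A549 and -0.28 in H441 (limma adjusted p = 0.26). OTUB2, a deubiquitinase, had -0.16 and 0.25, SKP1, which links F-box proteins to cullin, 0.27 and -0.08, and TP53BP2, which brings protein phosphatase 1 to TAZ, 0.06 and -0.18.

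Of 27 tested kinases that phosphorylate 14-3-3 binding sites, limma called 0, with 1 (3.70%) at an unadjusted p under 0.05, beside 13.2% of all genes. AKT1, which creates such sites on BAD and FOXO factors, had 9.83 with siTAZ, against 9.53 with siNTC, in A549 and 10.21, against 9.88, in H441, differences of 0.31 and 0.32 (limma adjusted p = 0.19). CAMK2D had 0.40 and -0.21, MARK4 -0.12 and -0.36 and PRKACB, a catalytic subunit of protein kinase A, 0.11 and -0.37. The median was 0.02 in A549 and -0.01 in H441.

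Of 62 tested genes listed as 14-3-3 clients, 1 rose and 0 fell, or 1.61%, beside 2.47% of all genes. Clients with an unadjusted limma p under 0.05 numbered 9 (14.5%), beside 13.2% of all genes. MYLIP, a ubiquitin ligase of the LDL receptor, rose by 0.59 in A549 and 0.31 in H441 (0.45 ± 0.12 SE, 2 lines, limma adjusted p = 0.046), and lost the call under each alternative. Its adjusted p ran from 0.05 to 0.15 there, apart from the fit without the cell line. Its place on the list was not checked against a source. USP8, a deubiquitinase, had -0.21 and -0.72 (adjusted p = 0.054). CDKN1B, the p27 inhibitor of cyclin-dependent kinases, had -0.36 and -0.45 (adjusted p = 0.068), WEE1, the kinase that restrains CDK1, -0.46 and -0.33, and CDC25A, the phosphatase that opposes it, -0.29 and -0.47. These 4 passed after median centring, which lowers every H441 difference by about 0.08. The list had 32 members lower in A549 and 33 in H441 of the 62, where 48.5% and 47.5% of all tested genes were lower, and a median of -0.03 in each line.

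The DNA damage response genes followed here were a list of p53 targets other than SFN. Of the 22 tested, 1 rose and 1 fell, or 9.09%, beside 2.47% of all genes. An unadjusted limma p under 0.05 was reached by 4 (18.2%), beside 13.2% of all genes. PLK2, a polo-like kinase gene, had 9.72 with siTAZ, against 10.76 with siNTC, in A549 and 7.85, against 8.84, in H441 (-1.02 ± 0.12 SE, 2 lines, limma adjusted p = 2.3e-05). TP53INP1, a stress-induced gene, rose, with 1.45 in A549 and 0.23 in H441 (0.84 ± 0.17 SE, 2 lines, limma adjusted p = 0.0068). Both its H441 signals were below 6.13, and it lost the call after quantile normalization, after cyclic loess and without the filter. CDKN1A, the p21 inhibitor and like SFN an arrest gene, had -0.0031 and 0.21 (adjusted p = 0.80), and MDM2, a ubiquitin ligase gene, 0.06 and -0.13 (adjusted p = 0.95). GDF15 had -0.0048 and 0.54, RRM2B 0.38 and 0.18, AEN -0.35 and -0.17 and PMAIP1 0.23 and 0.25. The median was -0.0016 in A549 and 0.05 in H441.

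Of 8 tested genes listed as acting on SFN or its protein, limma called 0. USP8 alone (12.5%) had an unadjusted limma p under 0.05, beside 13.2% of all genes. It is the same gene as in the client list, so it is counted in both lists. TRIM25, the ligase that degrades 14-3-3 sigma, had -0.13 and -0.21, BRCA1 -0.0046 and -0.22, and ZEB1, a repressor of epithelial genes, -0.04 and -0.33.

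**Figure D5:**
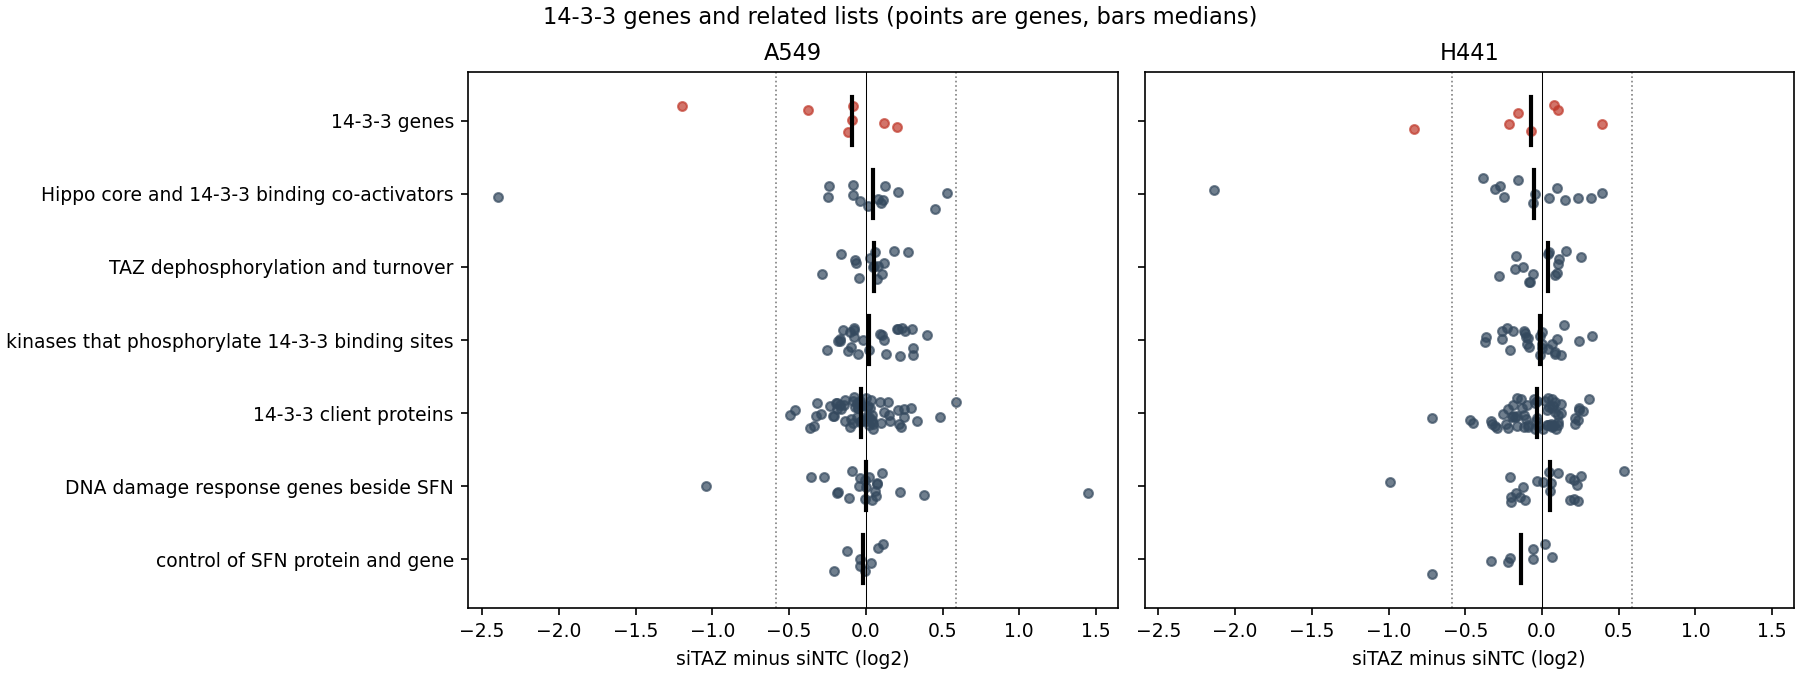
Log2 difference, siTAZ minus siNTC (horizontal axis), in A549 (left) and H441 (right) for the 14-3-3 genes (red) and the tested members of 6 lists (dark blue). Each point is 1 gene, with vertical scatter for display, bars are medians and dotted lines mark 1.5-fold. Of the 14-3-3 genes only YWHAH, at -1.20 and -0.83, lies outside the dotted lines, as do WWTR1 among Hippo genes and PLK2 among DNA damage response genes in both lines.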

How the data were processed

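RNA from 4 cultures was hybridised to whole-transcript arrays. The deposited log2 values are RMA probe set signals made by the authors, per the submitters' processing notes, and RMA compresses differences of dim probe sets. The log2 scale was read from the values, 4.20 to 14.83, since scanner values were not used here. Joint normalization of the arrays is not stated. The deposited arrays do not share one distribution, with medians between 6.05 and 6.25. The main differences and limma fit used the values as deposited. The number of arrays limits precision. Of 28869 probe sets, 19310 had 1 gene symbol, 1752 several and 7807 none, and 19279 matched the GRCh38.p14 gene table by Entrez identifier. The brightest probe set stood for a gene.

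Per line, siTAZ minus siNTC was taken for genes whose higher array reached the table median. limma 3.58.1 in R 4.3.3 was fitted to 12740 genes whose highest array reached it, with cell line as a block, 1 residual degree of freedom and a prior worth 22.3. The fit was also run on simulated data in which every gene had independent noise of the same spread. Such data cannot show how spreads that differ between genes, or effects shared by an array, alter the calls. Promoters are RefSeq's.

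The members and lists were chosen with earlier results of these data known. Named were the 7 members, WWTR1, YAP1, LATS1, LATS2, CDKN1A and MDM2, limma calls plus the 4 other genes of each list whose absolute differences averaged highest, and the 5 nearest profiles of YWHAH and SFN. YWHAH-AS1 and YWHAQP8 were added after their values were seen. Scaling, filter, probe set choice and the block were varied.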

Additional observations from a re-analysis of the deposited data

Results flagged for a closer look

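3 family members had differences of opposite sign in the 2 lines, siTAZ minus siNTC. The opposition rests on 1 array per group and was not tested. YWHAG had -0.11 in A549 and 0.39 in H441, YWHAZ had 0.12 and -0.21, and SFN had -0.38 and 0.08. The signs of YWHAG and YWHAZ were kept under each scaling and with averaged probe sets. That of SFN in H441 was not, being -0.0028 after median centring.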

How the results depend on the processing

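Of 112 differences of 14-3-3 genes under 4 alternatives, 1 of which (averaged probe sets) can move only YWHAE, 107 stayed on their side of the fold threshold, and 0 past it changed sign. The 5 others were the SFN and YWHAZ line differences on the siNTC arrays. The YWHAE difference after siTAZ in H441 changed sign after cyclic loess (0.02). The limma count of 315 (151 higher, 164 lower) was 159 after quantile normalization, 20 after cyclic loess, 92 without the filter and, by median centring, 400 (123 and 277). Without the cell line as a replicate block limma called 0, 11 having an unadjusted p under 0.05, because the line difference then enters the spread. In H441, 57 genes were higher and 116 lower by 1.5-fold, and 26 and 220 after median centring. Client calls were 4 after median centring and 0 under quantile normalization, cyclic loess, averaged probe sets and both other filters, with 7 to 10 (11.3% to 15.8%) at an unadjusted p under 0.05, beside 10.6% to 14.5% of all genes. Calls among DNA damage response genes were 1 after quantile normalization, after cyclic loess and without the filter. Among genes listed as acting on SFN, USP8, also one of the 4 client calls, was 1 call after median centring. The cause of the other moves was not tested. No replicate could be left out, since each group is 1 array.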
